A study of Rattus norvegicus with 24 samples.

Results

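The red cell transcripts measured here were those of Alas2, Slc4a1 and the globin genes in rat left ventricle. They were found as every probe set that the array's annotation gives to Alas2, Slc4a1 or a gene of the alpha or beta globin family, with neighbouring globin symbols kept. That gave 16 of 8740 probe sets, covering 12 genes, and 13 of the 16 passed the filter on dim probe sets and were tested. The tested probe sets were 1 for Alas2, 3 for Slc4a1, 2 for alpha globins, 3 for adult beta globins, 3 for embryonic beta-type globins, and 1 whose annotation mixes a beta globin with ribosomal RNA and other genes. A probe set is a group of short probes read as 1 value, and several globin probe sets cannot separate near-identical gene copies. The probe set of Hba-a1 and Hba-a2 carries both symbols, and 1 of the adult beta sets carries Hbbl1, Hbb-bs, Hbb-b1 and Hbb. The labelled names "Hbb" and "Hbb-b1" are those of the annotation, and cross-hybridisation between adult beta genes was not tested.

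All hearts came from Dahl salt-sensitive rats, a strain in which dietary salt raises blood pressure, and each array held total RNA of the left ventricle. Rats were obtained when 5 weeks old, and diet or training started when they were 6 weeks old. High salt rats, the pathologic hypertrophy model, ate chow with 6% NaCl and were sampled at 3, 6 and 15 weeks. Exercise rats, the physiologic model, ran on a treadmill every day for 6 weeks and were sampled at 3 and 6 weeks. Their load increased for 3 weeks and was then held for 3 weeks with daily runs of 90 minutes at 16 m/min up a slope of 5 degrees. Control rats of the same age were sedentary on normal chow and were sampled at 3, 6 and 15 weeks. The titles number 3 arrays in each of these 8 groups, and the labels leave unsaid when the count of weeks began, whether each array is 1 animal, or whether blood was flushed from the ventricle. P-values therefore measure the spread between arrays, which may be technical.

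Of the 24 deposited columns, 22 were distinct arrays. The columns numbered 2 and 3 of exercise at 3 weeks matched the same columns of the 3-week controls in each of 8799 values, so 2 arrays carried 2 labels. Both were left out of the fit, which used 20 arrays, except in the 3-week comparison of high salt with all non-salt hearts, where either label is non-salt. The 6-week controls stood apart in RNA quality, with ratios of 3' to 5' GAPDH signal of 1.58, 2.48 and 3.99. For the 15-week controls that ratio was 1.09, 1.52 and 1.58, and the other distinct arrays lay between 0.989 and 1.18. As a look at the labelled tissue, 9 of 11 listed ventricular myocyte genes were on the array. Their summed intensity lay between 185577 and 312199 on the distinct arrays, and that of 2 atrial markers between 269.6 and 606.3. The sums cover unlike numbers of genes, and whether the 9 genes tell ventricle from atrium was not tested. No detection calls were used, and precision is limited by how few arrays each group has.

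Red cells of mammals lose their nucleus as they mature and keep RNA for a short time afterwards, as reticulocytes. Alas2 is the erythroid form of the enzyme that starts heme synthesis. Slc4a1 encodes band 3, the anion exchanger of the red cell membrane, which trades chloride for bicarbonate and anchors the membrane skeleton. The alpha and beta globin chains assemble with heme into hemoglobin, which carries oxygen. In heart tissue these transcripts are known mainly from blood in the vessels, and low globin expression has been described in other cell types too. More red cell material in a ventricle and more RNA per cell cannot be told apart in RNA from whole tissue.

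The stretches of 250 bases before the starts of 5 adult globin genes are shown. They set out how alike the alpha copies are and how unlike Hbb and Hbb-b1 are in this window. The probe sets of Hbb and Hbb-b1 varied together, but cross-hybridisation between adult beta genes was not tested. The stretches are RefSeq sequences of the GRCr8 build, 5′ to 3′, all on the minus strand. Hba-a1 is at chr10:15842581-15842830, Hba-a2 at chr10:15829139-15829388 and Hba-a3 at chr10:15816944-15817193. Hbb is at chr1:167663722-167663971 and Hbb-b1 at chr1:167643521-167643770. Capitals mark 4 motifs on either strand. The GATAA motif is the core that GATA factors are known to bind, the CACCC motif is that of Klf factors, the CCAAT motif is that of the Nfy complex, and the TATAA motif is the TATA box core. A match on the reverse strand is printed as its reverse complement.

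Hba-a1: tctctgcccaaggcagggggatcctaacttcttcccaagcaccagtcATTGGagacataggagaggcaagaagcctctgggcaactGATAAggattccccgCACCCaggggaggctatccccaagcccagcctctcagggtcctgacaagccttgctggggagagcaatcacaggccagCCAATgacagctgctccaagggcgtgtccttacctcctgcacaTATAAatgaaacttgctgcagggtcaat
Hba-a2: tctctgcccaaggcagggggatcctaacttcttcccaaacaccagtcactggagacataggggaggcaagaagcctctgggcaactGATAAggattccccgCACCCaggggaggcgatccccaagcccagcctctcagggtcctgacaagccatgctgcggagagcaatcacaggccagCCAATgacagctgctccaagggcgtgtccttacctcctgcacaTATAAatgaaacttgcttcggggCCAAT
Hba-a3: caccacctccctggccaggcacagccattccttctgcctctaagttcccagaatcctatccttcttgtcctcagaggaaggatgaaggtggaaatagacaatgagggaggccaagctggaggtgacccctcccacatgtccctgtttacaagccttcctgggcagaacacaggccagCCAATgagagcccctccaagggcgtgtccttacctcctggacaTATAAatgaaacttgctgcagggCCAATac
Hbb: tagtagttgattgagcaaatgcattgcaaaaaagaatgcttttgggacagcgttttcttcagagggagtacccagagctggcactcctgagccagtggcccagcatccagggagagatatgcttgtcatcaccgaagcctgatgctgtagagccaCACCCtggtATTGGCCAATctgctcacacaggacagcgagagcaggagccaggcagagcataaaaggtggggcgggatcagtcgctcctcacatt
Hbb-b1: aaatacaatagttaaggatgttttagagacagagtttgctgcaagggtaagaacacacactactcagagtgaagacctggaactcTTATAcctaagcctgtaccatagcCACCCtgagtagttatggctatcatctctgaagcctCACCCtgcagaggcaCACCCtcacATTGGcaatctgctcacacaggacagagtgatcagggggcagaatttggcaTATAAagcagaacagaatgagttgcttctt

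The windows of Hba-a1 and Hba-a2 were identical in 96.4% of aligned columns, whereas Hba-a1 and Hba-a3 shared 66.3% and Hbb and Hbb-b1 shared 61.8%. GATAA occurred once each before Hba-a1 and Hba-a2, with its first base at -164 in both, and CACCC once each at -149. Neither of these motifs was found in the Hba-a3 window, which has 2 copies of CCAAT and 1 of TATAA. The window of Hbb-b1 holds 3 matches of CACCC and that of Hbb holds 1. In Hbb the 2 CCAAT matches, 1 on each strand, lie end to end as a palindrome. Over all 33469 promoters of the table, the share with at least 1 match in the same window was 23.5% for the GATAA motif, 49.2% for the CACCC motif, 34.0% for the CCAAT motif and 24% for the TATAA motif. These are letter matches, and no match says only that the letters are not in this window. The table's window for Alas2 begins inside the annotated gene and is not shown, and Slc4a1, Hbe2 and Hbg1 are named only.

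Late in the salt diet several red cell transcripts were higher in the ventricle, above all those of Alas2 and Slc4a1. At 15 weeks 6 of the 13 tested probe sets rose in high salt hearts over controls and 0 fell, by limma at an adjusted p under 0.05. Across all 6555 tested probe sets 7.17% were called in this comparison, 3.28% as higher. The median log2 fold change of the 13 was 0.70, beside -0.04 for all tested probe sets. In 8 of the 13, every high salt array lay above every control, which was so for 8.39% of all tested probe sets. Both counts include Hbg1, which passed the filter through the late high salt arrays themselves. Its mean was 44.5 over the 22 distinct arrays and 34.9 over the 19 without late high salt, under the filter value of 41.9. The changes were unequal among the genes. Alas2 and 1 Slc4a1 probe set rose by about 2 log2 units, whereas the named globin probe sets moved by 1 unit or less. Whether the very bright adult globin signals rise as far as their RNA was not tested. With the dim probe sets included, the median over all 16 was 0.43.

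Alas2, which starts heme synthesis in erythroid cells, was 4.47-fold higher in high salt hearts than in controls at 15 weeks. At 3 weeks its intensity was 1077.4, 1585.9 and 1369.2 in high salt hearts, against 854.9 in the control, 1192.1 in the exercise heart and 986.1 and 960.9 in the arrays under both labels. At 6 weeks it was 940.4, 1342.8 and 604.1 in high salt hearts and 1069.1, 1036.7 and 946.2 in exercise hearts, against 666.6, 978.8 and 1172.5 in controls. These early groups overlapped. At 15 weeks it was 4562.0, 4748.8 and 5144.1 in high salt hearts, against 862.1, 1031.8 and 1283.2 in controls. The 3 late high salt arrays lay far above each of the 19 other distinct arrays, which spanned 604.1 to 1585.9. The log2 fold change at 15 weeks was 2.16 ± 0.25 (SE, adjusted p = 2.1e-05 by limma), with a 95% interval of 1.64 to 2.68. Among the 8 groups, high salt at 15 weeks came first with a mean of 4818 ± 297 (SD, n = 3) and high salt at 3 weeks next with 1344 ± 255. The 6-week groups and the 15-week controls had means from 939 to 1059. Without the arrays under both labels, the 3-week control and exercise groups held 1 array each, at 854.9 and 1192.1.

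Slc4a1, the anion exchanger, was measured by 3 probe sets that did not behave alike. The brightest read 366.0, 504.8 and 405.7 in high salt hearts at 3 weeks, against 510.4, 593.8, 613.1 and 497.9 in the 4 non-salt arrays. At 6 weeks it read 370.9, 493.5 and 365.7 in high salt hearts and 508.5, 539.6 and 695.6 in exercise hearts, against 580.5, 460.5 and 390.9 in controls. At 15 weeks it read 2058.9, 1493.1 and 1764.8 in high salt hearts, against 419.0, 429.0 and 441.8 in controls. Before the late stage, high salt hearts were thus among the lowest for this probe set, and at 15 weeks they were the highest of all groups. The late change was 1.94 ± 0.20 log2 units (SE, adjusted p = 7.1e-06 by limma), or 3.83-fold. The second probe set read 998.8, 1146.1 and 722.6 in high salt hearts at 15 weeks, against 503.7, 583.6 and 382.5 in controls. It rose by 0.90 ± 0.22 log2 units (SE, adjusted p = 0.0146 by limma), a call lost without control array 3 (adjusted p = 0.0843) or without high salt array 1 or 2. The third probe set was dim, between 30.3 and 109.9 on all distinct arrays. Its change was -0.04 ± 0.25 log2 units, so the 3 probe sets disagree, and which parts of the transcript they read was not examined here.

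The alpha globin genes gave a larger change in Hba-a3 than in the joint Hba-a1 and Hba-a2 probe set. The joint probe set read 28439.9, 34135.0 and 30722.1 in high salt hearts at 15 weeks, against 20695.8, 28249.2 and 24943.9 in controls. The groups did not overlap, yet they came close, and the change of 0.34 ± 0.18 log2 units did not pass (adjusted p = 0.30 by limma). Its 95% interval ran from -0.03 to 0.72. Hba-a3, a further alpha globin gene of the rat cluster, read 1857.0, 1632.4 and 2686.8 in high salt hearts at 15 weeks, against 916.7, 1120.1 and 1062.5 in controls. It rose by 0.94 ± 0.23 log2 units (SE, adjusted p = 0.0149 by limma). Without high salt array 3, its brightest, the change was 0.74 and the adjusted p 0.0872.

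Among the adult beta globins, Hbb-b1 passed the test at 15 weeks and Hbb came close to the threshold, and which of them passed depended on the settings. Hbb-b1 read 20898.5, 32699.3 and 22175.5 in high salt hearts, against 12605.7, 13926.3 and 19990.2 in controls. High salt array 2 and control array 3 were the brightest of their groups, and the lowest high salt array stood just above the highest control. The change was 0.70 ± 0.20 log2 units (SE, adjusted p = 0.0379 by limma), and the call was lost without control array 1 or 2 or without high salt array 2 or 3, at adjusted p between 0.0555 and 0.158. It was lost under 4 of 13 other settings as well, at adjusted p between 0.0616 and 0.116. Hbb read 25294.9, 32759.8 and 27937.5 in high salt hearts, against 16885.2, 20347.4 and 22773.5 in controls. Its groups did not overlap either, and its change was 0.52 ± 0.17 log2 units (adjusted p = 0.068 by limma). With quantile normalization Hbb passed, at 0.58 ± 0.15 log2 units (adjusted p = 0.0234 by limma). The probe set shared by 4 adult beta genes read 15368.3, 24288.9 and 16536.2 in high salt hearts, against 15754.7, 15621.5 and 16190.5 in controls. Here 1 high salt array stood high and the other 2 lay among the controls, and the change was 0.21 ± 0.18 log2 units (adjusted p = 0.59 by limma).

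The embryonic beta-type globins, which the yolk sac's red cells are known to use, read far lower than the adult ones in these hearts, although each value depends on its own probes. Hbg1 read 117.1, 70.6 and 129.1 in high salt hearts at 15 weeks, against 36.4, 33.4 and 53.0 in controls, and 20.6 to 53.0 on the 19 distinct arrays other than late high salt. It rose by 0.83 ± 0.22 log2 units (SE, adjusted p = 0.0272 by limma) on a scale that understates changes at this brightness. That call was lost without control array 1 or 2 and without high salt array 1 or 3. Since the probe set is dim and globin sequences are alike, signal from adult globin RNA in it was not tested. Hbe2 read 199.1 to 496.3 in high salt hearts and 219.7 to 267.8 in controls, with overlapping groups and a change of 0.24 ± 0.32 log2 units. Hbe1 averaged 128 ± 70.4 in high salt hearts and 111 ± 24.6 in controls (SD, n = 3 each), again overlapping. The 2 further embryonic probe sets, 1 of Hbg1 and 1 of Hbe2 with Hbg1, stayed below the filter, at 4.8 to 85.7. At 15 weeks the former read 15.1 to 84.8 in high salt hearts, against 19.3 to 80.6 in controls. The latter read 8.8 to 58.7, against 34.4 to 47.5, so neither showed the rise of the tested Hbg1 probe set. The probe set with mixed annotation changed by 1.17 ± 0.49 log2 units (adjusted p = 0.176 by limma), and no gene is named from it, nor from a second mixed one below the filter.

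**Figure D1:**
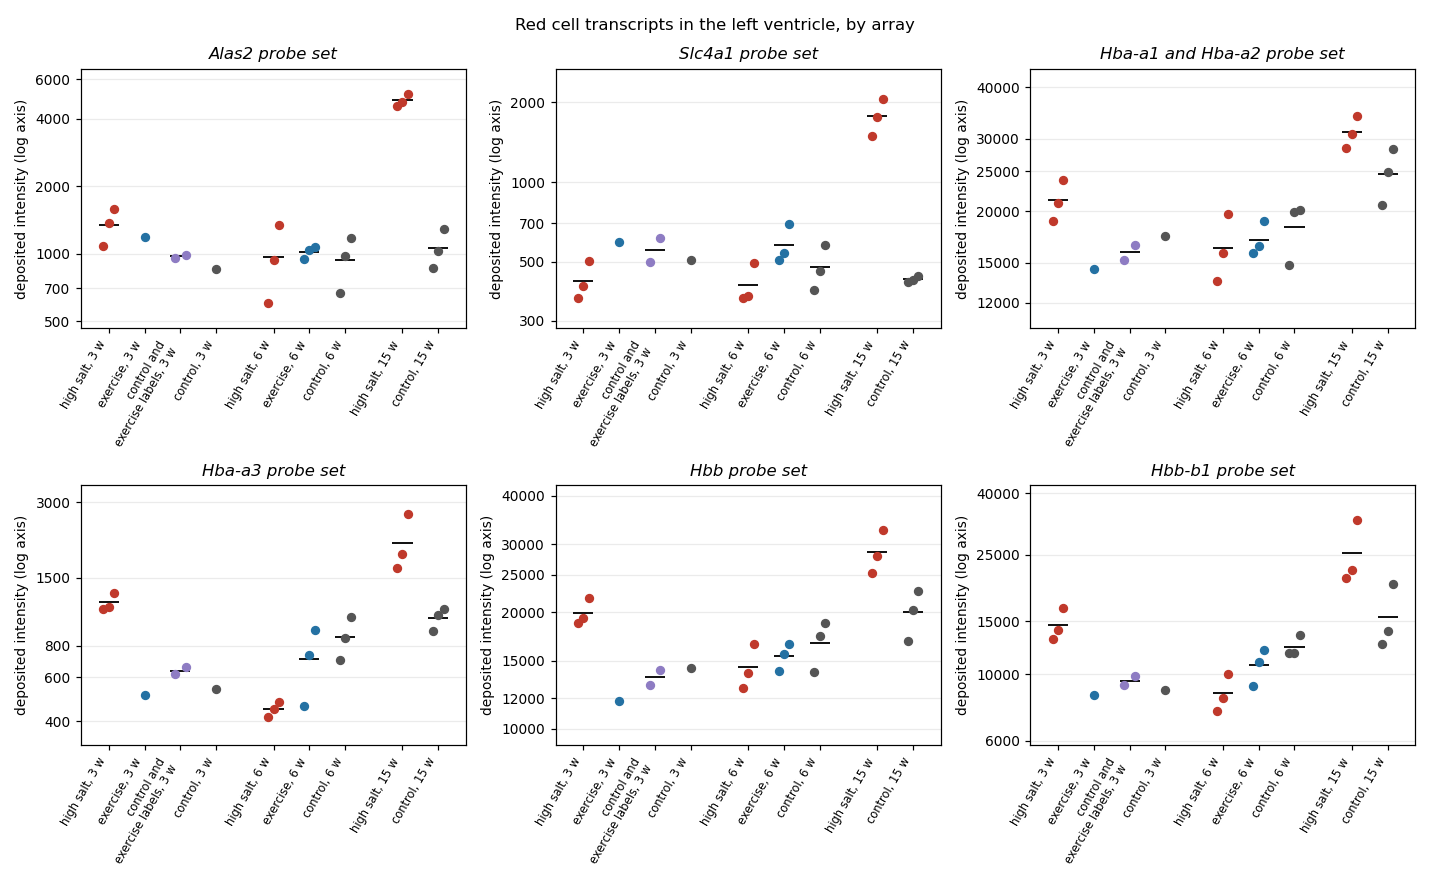
Intensity of 6 red cell probe sets (log axes) on the 22 distinct arrays by week and group, with points for arrays and bars for group means where a group has more than 1 array. The late high salt arrays of Alas2, at 4562.0 to 5144.1, and of Slc4a1, at 1493.1 to 2058.9, stand apart from all other arrays, while the globins of late high salt hearts lie closer to their controls.

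Within the salt diet the later hearts were compared with the earlier ones, a difference in which no control array enters, although its standard error and p-value draw on the spread of all 20 arrays. At 15 weeks 7 of 13 probe sets rose over high salt hearts at 6 weeks and 0 fell, where 3.19% of all tested probe sets were called and 1.65% as higher. In 8 of 13, every 15-week array lay above every 6-week array, against 7.15% of all tested probe sets. Alas2 rose by 2.34 ± 0.25 log2 units and the brightest Slc4a1 probe set by 2.01 ± 0.20 (adjusted p = 9.6e-06 and 4.9e-06 by limma). All the bright globin probe sets other than the shared beta one passed here as well. Hba-a3 rose by 2.08 ± 0.23 log2 units, with 1857.0, 1632.4 and 2686.8 in high salt hearts at 15 weeks against 446.7, 478.1 and 418.1 at 6 weeks. Hbb-b1 rose by 1.53 ± 0.20 log2 units, with the 15-week values given above against 7549.1, 9992.7 and 8348.2 at 6 weeks. For neither gene was the course along the diet a steady rise. High salt hearts at 3 weeks averaged 1193 for Hba-a3 and 14608 for Hbb-b1, between the means at 6 and 15 weeks, and the change from 3 weeks was not tested. Hbb rose by 0.99 ± 0.17 and the joint Hba-a1 and Hba-a2 probe set by 0.94 ± 0.18 log2 units (adjusted p = 0.00135 and 0.0037 by limma). The last of the 7 was the dim Hbg1, at 1.02 ± 0.22 log2 units (adjusted p = 0.0108 by limma). Its call was kept in 4 of 6 runs that left out 1 array. Hbg1 is also among the 8 above, and it passed the filter through the late high salt arrays. The second Slc4a1 probe set changed by 0.78 ± 0.22 log2 units and did not pass (adjusted p = 0.0567).

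Controls did not show that pattern to a degree the test could call. In controls at 15 weeks over controls at 6 weeks, 0 of 13 passed by limma, and 0.87% of all tested probe sets were called. At an unadjusted p under 0.05 lay 1 of the 13 and 1114 of all 6555 tested. The joint Hba-a1 and Hba-a2 probe set read 20695.8, 28249.2 and 24943.9 in controls at 15 weeks against 19945.1, 14826.8 and 20197.9 at 6 weeks, a change of 0.43 ± 0.18 log2 units (adjusted p = 0.222 by limma). Every later control lay above every earlier one for this probe set, as in 2 of 13 red cell probe sets and 6.09% of all tested ones. Alas2 changed by 0.18 ± 0.25 log2 units between these controls.

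Whether the effect of salt differed between 15 and 6 weeks was tested as an interaction. It was positive for 4 of 13 probe sets and negative for 0, where 1.6% of all tested probe sets were called, 0.793% as positive. The difference was 2.16 ± 0.35 log2 units for Alas2 (SE, adjusted p = 0.00273 by limma) and 2.13 ± 0.28 for the brightest Slc4a1 probe set (adjusted p = 0.000368). It was 1.82 ± 0.32 for Hba-a3 (adjusted p = 0.00495) and 1.22 ± 0.28 for Hbb-b1 (adjusted p = 0.0284). The call of Hbb-b1 held in 5 of 12 runs that left out 1 array, and was lost without control array 1 or 2 or high salt array 2 of 15 weeks, and without control array 2 or 3 or high salt array 1 or 3 of 6 weeks. The 6-week controls enter this difference, and their GAPDH ratios were the highest of the series. With that ratio as a covariate, Slc4a1 alone passed, and Alas2 stood at 1.63 (adjusted p = 0.0528), Hba-a3 at 1.58 (adjusted p = 0.0647) and Hbb-b1 at 0.98 (adjusted p = 0.235).

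At 6 weeks only 1 of 13 red cell probe sets was called in high salt hearts over controls, and it fell. In this comparison 14.3% of all tested probe sets were called, so the share among red cell probe sets was no higher than over the whole array. Hba-a3 read 446.7, 478.1 and 418.1 in high salt hearts, against 862.7, 700.1 and 1042.8 in controls. All high salt arrays lay below all controls, as in 3 of 13 red cell probe sets and 20.3% of all tested ones. The change was -0.88 ± 0.23 log2 units (SE, adjusted p = 0.0135 by limma). Adding the GAPDH ratio to the model gave -0.56 (adjusted p = 0.696) and comparing with controls of 3 and 15 weeks gave -0.91 (adjusted p = 0.075), and the call was also lost without control array 3 or high salt array 3. Alas2 changed by 0.00 ± 0.25 and Hbb by -0.21 ± 0.17 log2 units, with overlapping groups. With the GAPDH covariate these were 0.70 ± 0.37 for Alas2 (adjusted p = 0.595) and 0.00 ± 0.27 for Hbb (adjusted p = 0.999).

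Exercise left no called change in these transcripts. Over 6-week controls 0 of 13 passed by limma, where 7.84% of all tested probe sets were called. At an unadjusted p under 0.05 lay 1 of the 13 and 1567 of all 6555 tested. The median log2 fold change of the 13 was -0.12, the same as over all tested probe sets. Alas2 averaged 1017 ± 63.7 in exercise hearts and 939 ± 255 in controls, and Hbb 15421 ± 1251 in exercise hearts and 16717 ± 2429 in controls (SD, n = 3 each). The log2 fold change of Alas2 was 0.14 ± 0.25, and with the GAPDH ratio of these controls in the model it was 0.89 ± 0.38, which did not pass (adjusted p = 0.637 by limma). Hba-a3 read 462.0, 924.6 and 733.5 in exercise hearts, overlapping its controls. High salt against exercise at 6 weeks also gave 0 of 13, where 0.0153% of all tested probe sets were called. No control array enters this difference. An unadjusted p under 0.05 by limma was reached by 462 of all 6555 tested probe sets and by 2 of the 13. Those 2 were the brightest Slc4a1 probe set, at -0.46 ± 0.20 log2 units (95% interval -0.88 to -0.05), and Hba-a3, at -0.57 ± 0.23 (95% interval -1.04 to -0.09). For Slc4a1 every high salt array lay below every exercise array, as in 1 of 13 red cell probe sets and 7.95% of all tested ones. For the shared adult beta probe set every high salt array lay above, as in 5.42% of all tested ones.

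At 3 weeks 1 of 13 probe sets rose in high salt hearts over non-salt hearts and 0 fell, where 0.153% of all tested probe sets were called. The one that rose was Hba-a3, with 1306.9, 1123.6 and 1147.2 in high salt hearts, against 537.8 in the control, 507.7 in the exercise heart and 618.4 and 657.7 in the arrays under both labels. It rose by 0.99 ± 0.20 log2 units (SE, adjusted p = 0.0374 by limma). The call was lost when any 1 of the 7 arrays was left out, at changes between 0.93 and 1.05 and adjusted p between 0.0625 and 0.275. Every high salt array lay above every non-salt array in 5 of 13 probe sets, beside 6.13% of all tested ones. The 5 were Hba-a3, Hbb, Hbb-b1, the joint Hba-a1 and Hba-a2 probe set, and the one with mixed annotation, from which no gene is named. Of these, Hbb read 21860.9, 19372.4 and 18744.8 in high salt hearts, against 14392.2, 11803.0, 12952.4 and 14219.3 in non-salt hearts. Its change was 0.58 ± 0.15 log2 units (adjusted p = 0.133). Hbb-b1 read 16614.9, 14072.3 and 13135.7 in high salt hearts, against 8858.0, 8549.4, 9182.0 and 9842.5 in non-salt hearts, with a change of 0.67 ± 0.17 log2 units (adjusted p = 0.157). The joint Hba-a1 and Hba-a2 probe set averaged 21262 ± 2496 in high salt hearts (SD, n = 3) and 15950.4 ± 1341 in non-salt hearts (SD, n = 4). Alas2 changed by 0.41 ± 0.22 and the brightest Slc4a1 probe set by -0.36 ± 0.17 log2 units, neither passing.

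**Figure D2:**
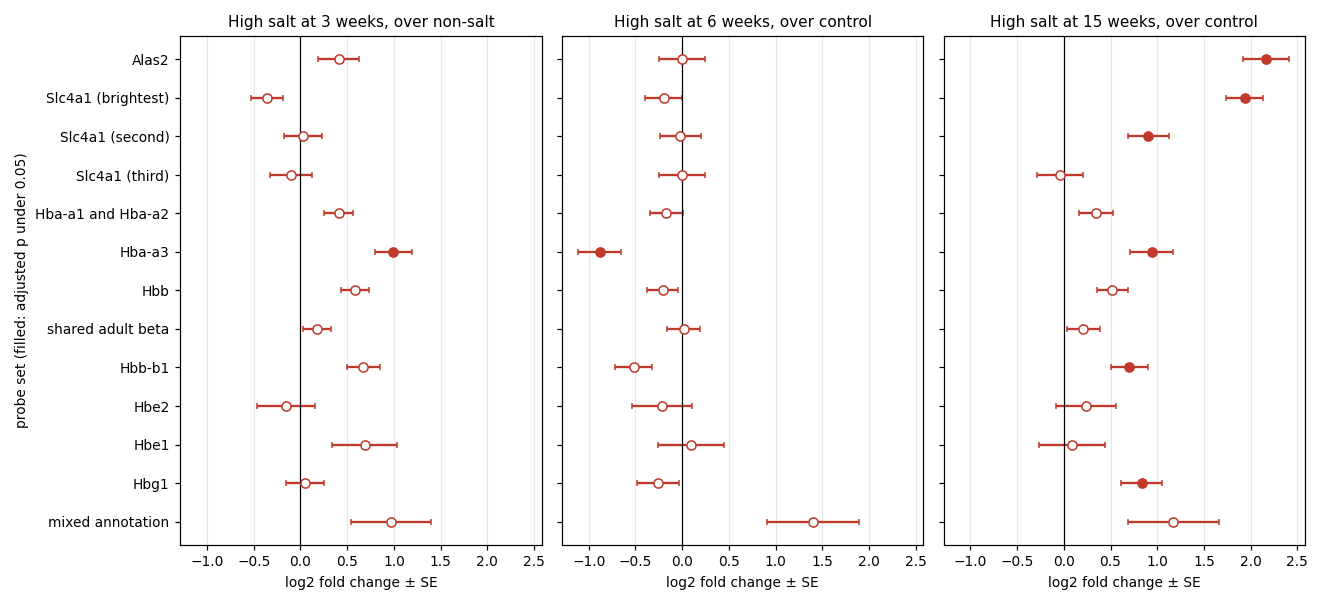
Log2 fold change of high salt hearts over their comparison group for the 13 tested probe sets at 3, 6 and 15 weeks, with bars of 1 SE and filled points at an adjusted p under 0.05. Called points number 1 at 3 weeks, 1 at 6 weeks and 6 at 15 weeks, and Alas2 and the brightest Slc4a1 probe set reach 2.16 and 1.94 at 15 weeks.

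Most adult globin probe sets varied together from array to array. Over the 19 distinct arrays without late high salt, the joint Hba-a1 and Hba-a2 probe set and Hbb correlated at Pearson r = 0.90 and Spearman rho = 0.94, each with a permutation p of 1e-05, the smallest that 100000 permutations can give. Of the 6 pairs computed among Alas2, Slc4a1, Hba-a1 with Hba-a2, and Hbb, this one passed Benjamini-Hochberg adjustment (adjusted p = 6e-05). Its r was 0.94 without the 2 arrays farthest from the median of the alpha globin and 0.82 for deviations from group means, so it held within groups. As a description over the same 19 arrays, Hbb-b1 had r = 0.91 with Hbb and 0.81 with the joint alpha probe set, and Hba-a3 had 0.85 and 0.73. Signal shared by the adult beta probe sets through cross-hybridisation was not tested. The shared adult beta probe set followed less closely, with r = 0.48 with Hbb and 0.50 with alpha globin. The embryonic Hbe1 had 0.50 and 0.42, while Hbe2 had -0.17 and -0.01. Alas2 and Hbb had r = 0.42 and rho = 0.43 (permutation p = 0.0759 and 0.07, adjusted 0.228 and 0.21). Alas2 and the brightest Slc4a1 probe set had r = 0.01 and rho = -0.03 (permutation p = 0.958 and 0.905). Slc4a1 and Hbb had r = -0.32 and rho = -0.28 (permutation p = 0.187 and 0.246). All these arrays share a scaling to 1 common level, and its part in the correlations was not tested.

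Within each array, Alas2 was set against the mean log2 value of the joint Hba-a1 and Hba-a2, Hbb and Hbb-b1 probe sets. These 3 ranked 40, 52 and 86 of 8740 by brightness, and whether such bright signals rise as far as their RNA was not tested. Hba-a3, which rose by 0.94 log2 units at 15 weeks, and the shared adult beta probe set were left out. Relative to this globin mean and to the 15-week controls, Alas2 lay 1.37 to 1.80 log2 units higher in late high salt hearts. The controls themselves spanned -0.06 to 0.08. The mean difference was 1.64 (two-sided exact permutation p = 0.1, the smallest that 3 against 3 allows). For the brightest Slc4a1 probe set the same difference was 1.41 (exact p = 0.1). Alas2 relative to Slc4a1 differed by 0.22 at 15 weeks (exact p = 0.3). At 3 weeks Slc4a1 relative to the globins differed by -0.91 (exact p = 0.0571, the smallest that 3 against 4 allows). Alas2 relative to Slc4a1 was 0.76 higher at 3 weeks (exact p = 0.0571), at 0.66 to 0.86 in high salt hearts and -0.15 to 0.16 in non-salt hearts. Of 9 such differences tested, none passed Benjamini-Hochberg adjustment, with adjusted p of 0.225 or more over these exact permutation tests.

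**Figure D3:**
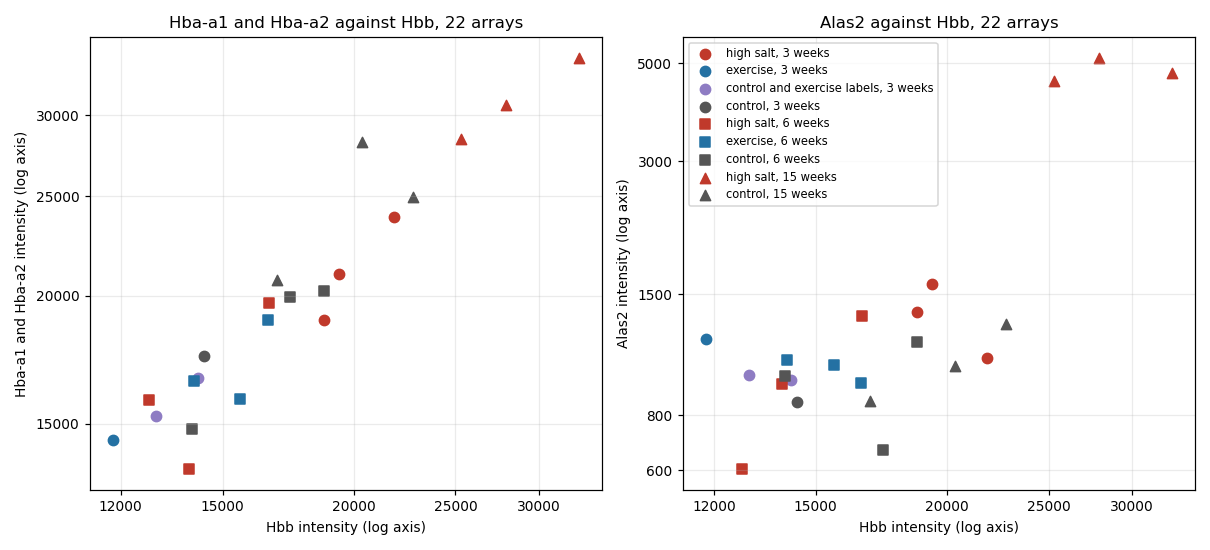
Intensities on the 22 distinct arrays (log axes), with the joint Hba-a1 and Hba-a2 probe set against Hbb on the left and Alas2 against Hbb on the right, coloured by group and shaped by week. On the left the 2 globin values rise together, and on the right the 3 late high salt arrays, at 4562.0 to 5144.1, lie above all others.

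Likeness was measured as the Pearson correlation of log2 values over the 22 distinct arrays, for the brightest probe set of each gene or globin type. The genes most like Alas2 were Alox15, a lipoxygenase known from rabbit reticulocytes, by both of its probe sets (r = 0.94 and 0.93), Ncam1, a cell adhesion molecule (0.90), Rhd, a Rh blood group protein (0.89), and Emb, a membrane glycoprotein (0.89). Those most like Slc4a1 were Alox15 (0.93 and 0.87), the acyl-protein thioesterase Lypla1 (0.92), Emb (0.88) and Orm1, an acute phase protein of plasma (0.87). For Hbb they were Ybx3 (0.83), Maoa (0.80), S100a8 (0.80), Emb (0.79) and Ncam1 (0.79). For the joint alpha globin probe set they were Maoa (0.77), S100a8 (0.75), Ncam1 (0.75), Tmed10 (0.74) and Xpnpep1 (0.74). For Alas2, and for Slc4a1 other than with Lypla1, most of this likeness rests on the 3 late high salt arrays. Without them, over 19 arrays, r with Alas2 was 0.56 and 0.26 for the 2 Alox15 probe sets, 0.28 for Ncam1, 0.51 for Rhd and 0.10 for Emb. With Slc4a1 it was 0.19 and 0.02 for Alox15, 0.22 for Emb, 0.37 for Orm1 and 0.83 for Lypla1. The globins kept more of theirs. With Hbb, r was 0.70 for S100a8, 0.63 for Ybx3, 0.58 for Maoa, 0.41 for Ncam1 and 0.38 for Emb, and with alpha globin it was 0.58 for S100a8, 0.55 for Maoa, 0.54 for Xpnpep1, 0.51 for Tmed10 and 0.35 for Ncam1.

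Of the genes so named, Alox15 changed most at 15 weeks. Its first probe set averaged 7273 ± 1566 in high salt hearts and 89.5 ± 45.4 in controls at 15 weeks (SD, n = 3 each), and 18.6 to 492.2 on the 19 arrays other than late high salt. The log2 fold change was 5.87 ± 0.35 (SE, adjusted p = 1.1e-09 by limma). Its second probe set averaged 6997 ± 635 in high salt hearts and 443 ± 28.4 in controls, a change of 3.86 ± 0.21 log2 units (adjusted p = 4.8e-10). Rhd averaged 481 ± 64.3 in high salt hearts and 143 ± 28.4 in controls by the probe set named above, and rose by 1.52 ± 0.25 log2 units (adjusted p = 0.000863). Its other probe set changed by 0.50 ± 0.18 and did not pass (adjusted p = 0.11). Likewise 1 Ncam1 probe set rose by 2.74 ± 0.36 log2 units (adjusted p = 8.2e-05) and the other changed by -0.23 ± 0.40 (adjusted p = 0.835).

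Other genes of the red cell were taken from lists and read by their brightest tested probe set. Of 10 red cell membrane and skeleton genes tested, 3 rose and 0 fell in high salt hearts over controls at 15 weeks, with a median log2 fold change of 0.21. Over all tested probe sets 7.17% were called in this comparison, 3.28% as higher. The 3 that rose are named next. They were Tmod1, which caps actin filaments (1.34 ± 0.24), Cd59b, a guard against complement (0.86 ± 0.18), and Slc2a1, a glucose transporter (0.75 ± 0.22), all of which other heart cells can express. At 6 weeks 1 of the 10 rose and 2 fell in high salt hearts over controls, beside 14.3% of all tested probe sets called. In exercise hearts 1 rose and 1 fell, beside 7.84% of all tested probe sets called. Tmod1 rose in both (1.01 ± 0.24 in high salt and 1.17 ± 0.24 in exercise hearts), the brighter probe set of Epb41, the skeleton protein 4.1, fell in both (-1.69 ± 0.25 and -0.89 ± 0.25), and Cd59b fell with salt (-0.58 ± 0.18). In high salt hearts at 15 weeks over those at 6 weeks, 3 rose and 0 fell, namely Slc2a1 (1.25 ± 0.22), Epb41 (1.05 ± 0.25) and Cd59b (0.85 ± 0.18). The same 3 passed the interaction test as positive. Of all tested probe sets, 1.65% were called as higher in the first comparison and 0.793% as positive in the interaction test. Rhag, the Rh-associated glycoprotein, changed by 0.06 ± 0.31 at 15 weeks. For Epb41 the probe sets disagreed at 15 weeks in high salt hearts over controls. The brighter changed by 0.23 ± 0.25 (adjusted p = 0.71) and the dimmer rose by 1.62 ± 0.33 log2 units (adjusted p = 0.00388).

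The rest of the red cell programme was read in the same way, with the shares called in each comparison given above. Whether any of these short lists exceeded those shares was not tested. In high salt hearts over controls at 15 weeks, 7.17% of all tested probe sets were called, 3.28% as higher. Of 5 red cell enzymes 1 rose, Hagh, a glyoxalase (0.90 ± 0.19 log2 units, adjusted p = 0.00649 by limma). Hagh and Car2, a carbonic anhydrase, also rose in high salt hearts at 15 weeks over those at 6 weeks (0.76 ± 0.19 and 0.68 ± 0.18). Gpx1, a glutathione peroxidase, was higher than in the 6-week controls in high salt hearts at 6 weeks (0.99 ± 0.20), in exercise hearts (0.79 ± 0.20) and in 15-week controls (0.90 ± 0.20). Of 4 further heme synthesis genes 0 passed, with 3 at an unadjusted p under 0.05 and a median of -0.50. Alas1, the housekeeping counterpart of Alas2, was called at 6 weeks, where it rose in high salt hearts by 1.95 ± 0.42 (adjusted p = 0.00416) and in exercise hearts by 1.45 ± 0.42 log2 units (adjusted p = 0.0373) over the controls with high GAPDH ratios. It fell in high salt hearts at 15 weeks relative to 6 weeks (-1.85 ± 0.42), and its interaction was negative (-2.95 ± 0.59). Of 2 tested erythroid factors and oxygen sensors 0 passed, with 1 at an unadjusted p under 0.05 and a median of 0.18. Gata1, a transcription factor of the erythroid lineage, averaged 102 ± 25.5 in high salt hearts and 58.8 ± 16.9 in controls at 15 weeks (change 0.52 ± 0.23, adjusted p = 0.222). The other tested gene of this list changed in the opposite direction. Of 6 iron handling genes 0 passed at 15 weeks, again with 1 at that level. In high salt hearts over controls at 6 weeks, Tfrc, the transferrin receptor (0.93 ± 0.28), and Ireb2, an iron-sensing RNA-binding protein (0.69 ± 0.22), rose, and Cp, the ferroxidase ceruloplasmin, fell (-0.79 ± 0.24). Of 5 genes of hemoglobin and heme disposal 1 rose, Hmox1, the inducible heme oxygenase that breaks heme down (1.58 ± 0.29 log2 units, adjusted p = 0.00201). Hmox1 also rose in high salt hearts at 15 weeks over those at 6 weeks (1.27 ± 0.29).

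Markers of other blood and heart cells were read likewise, with the shares called in each comparison given above. In the same 15-week arrays 7.17% of all tested probe sets were called, 3.28% as higher. Of 9 tested leukocyte markers 1 rose and 0 fell, with 3 at an unadjusted p under 0.05 and a median of 0.31. The one that rose was S100a8, a neutrophil and monocyte protein, with 261 ± 165 in high salt hearts and 31.1 ± 10.9 in controls (SD, n = 3 each) and a change of 1.94 ± 0.36 log2 units (adjusted p = 0.00202 by limma). S100a9 changed by 1.10 ± 0.38 (adjusted p = 0.0908) and Cxcr2, a neutrophil receptor, by 1.06 ± 0.32 (adjusted p = 0.0503). The S100a9 groups overlapped, with 389.4, 73.7 and 319.3 in high salt hearts against 39.2, 105.6 and 114.0 in controls. Cxcr2 read 99.3, 123.9 and 32.2 in high salt hearts, and 8.5 to 86.4 on the 19 distinct arrays other than late high salt. The summed intensity of the 11 leukocyte markers ranged from 2055 to 3506 in high salt hearts and from 1375 to 2254 in controls. Of 5 platelet markers 0 passed, with 0 at an unadjusted p under 0.05, and their sum ranged from 1270.3 to 1787 in high salt hearts and from 1066 to 1645 in controls. Of 5 endothelial markers 0 passed, with 3 at that level and a median of -0.64, and their sum ranged from 1398 to 1685 in high salt hearts and from 1899 to 2642 in controls. Of 6 fibroblast markers 0 rose and 4 fell, which were the collagens Col3a1 (-3.04 ± 0.32 log2 units), Col1a2 (-1.59 ± 0.28) and Col1a1 (-1.44 ± 0.29) and the proteoglycan Lum (-1.22 ± 0.30). Of 9 ventricular myocyte, 2 atrial and 4 smooth muscle markers 0 passed, with 1, 0 and 2 at an unadjusted p under 0.05 and medians of -0.11, 0.21 and -0.60. At 6 weeks, over the controls with high GAPDH ratios, 3 smooth muscle markers (Acta2, Tagln and Myh11) and 2 endothelial ones (Kdr and Nos3) fell both in high salt and in exercise hearts. The leukocyte marker Ptprc fell with salt there (-0.85 ± 0.26) and the myocyte calcium channel Ryr2 rose with exercise (1.58 ± 0.48). In high salt hearts at 15 weeks over those at 6 weeks, S100a8 (2.11 ± 0.36) and S100a9 (1.52 ± 0.38) rose and the same 4 fibroblast markers fell. By the brightest probe set of each marker, S100a8 had a positive interaction (2.34 ± 0.51) and Col3a1 a negative one (-3.55 ± 0.46). For Col1a1 the probe sets disagreed. The brightest did not pass (-1.12 ± 0.41, adjusted p = 0.191 by limma), nor did 1 other (-2.07 ± 0.54, adjusted p = 0.0573). Further ones passed at -2.24 ± 0.39 (adjusted p = 0.00436) and -1.77 ± 0.37 (adjusted p = 0.0167). Between 15-week and 6-week controls the endothelial Vwf rose (1.31 ± 0.30) and Myh11 fell (-1.13 ± 0.25). What part other cell types had in the red cell values was not tested.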

How the data were processed

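Left ventricular RNA of 24 deposited columns in 8 groups was measured on an Affymetrix rat array. The deposited table holds 1 linear intensity per probe set and column, already scaled by the authors, since means after trimming 2% lay between 500.767 and 501.021. How probe signals were summarised is not given in the sources used here. Control probe sets (59 of 8799) were removed, intensities were taken as log2(value + 40), which understates changes of dim genes, and probe sets with a mean under 41.9 (the 25th percentile) were not tested. limma 3.58.1 in R 4.3.3 fitted 1 mean per group with an intensity trend to 20 arrays (12 residual degrees of freedom), and the 3-week high salt comparison to 22 arrays (15 degrees of freedom), with 4 non-salt arrays as 1 mean. A lone array was assumed to vary like the rest. P-values were adjusted by Benjamini-Hochberg over 6555 probe sets, and the scripts were tested on simulated data.

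Members, lists and motifs were chosen with earlier results of these data known. All members are given, list genes and cell type markers (by their brightest tested probe set) are named where called in any of 8 contrasts, and likeness names the 5 highest correlations. Gata1, Rhag, Cxcr2, the dimmer Epb41 probe set and further probe sets of Rhd, Ncam1 and Col1a1 were named after their values were seen. Of 7018 probe sets with 1 symbol, 6994 matched a current RefSeq gene ID. Arrays of the same number deviated from their group means at correlations of -0.268 to 0.242, and in 0 of 15 pairs of groups was every correlation over 0.1. No pairing by number was thus seen, although a check with so few arrays per group could miss one. Alternatives changed the pseudocount (16 or 100), filter, normalization, covariate, replicate block, treatment of the arrays under 2 labels, shared spread, weights, trend and 6-week controls, or left out each array in turn. Leaving the arrays under 2 labels out of the 3-week comparison was chosen after seeing the data.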

Additional observations from a re-analysis of the deposited data

Results flagged for a closer look

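The effect of high salt differed between 15 and 6 weeks, by the interaction test in limma, for 4 of the 13 red cell probe sets, where 1.6% of all tested probe sets were called, 0.793% as positive. The difference in log2 fold change was 2.16 ± 0.35 (SE) for Alas2, 2.13 ± 0.28 for the brightest Slc4a1 probe set, 1.82 ± 0.32 for Hba-a3 and 1.22 ± 0.28 for Hbb-b1. The log2 fold changes behind them, at 15 weeks and then at 6 weeks, were 2.16 and 0.00 for Alas2, 1.94 and -0.20 for Slc4a1, 0.94 and -0.88 for Hba-a3, and 0.70 and -0.52 for Hbb-b1. For both Hba-a3 and Hbb-b1, every high salt array lay above every control at 15 weeks and below every control at 6 weeks. Of all tested probe sets, 8.39% lay wholly above at 15 weeks and 20.3% wholly below at 6 weeks. Both were named because their interaction was called on the same values, which favours such opposite separation. The GAPDH 3' to 5' ratios were 1.04 to 1.17 in high salt hearts at 6 weeks, against 1.58, 2.48 and 3.99 in the 6-week controls that enter these differences. With that ratio as a covariate, the brightest Slc4a1 probe set passed and Alas2, Hba-a3 and Hbb-b1 did not (adjusted p = 0.0528, 0.0647 and 0.235 by limma). None of the 4 non-salt arrays at 3 weeks stood out from its group in any of 13 probe sets, and groups of 3 were not checked.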

How the results depend on the processing

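Of 386 alternative values computed for the 19 called red cell values, 335 kept their direction and their call, 51 kept the direction and lost the call, and 0 reversed. Alas2 and the brightest Slc4a1 probe set kept the call at 15 weeks in every alternative run, over log2 fold changes of 2.03 to 2.33 and 1.81 to 2.10. The count of 6 at 15 weeks was 3 with only the groups compared, 7 with quantile normalization, the arrays under 2 labels as controls or as exercise, or all 24 columns, and 3 to 5 with 1 array left out, the lowest without high salt array 3. At 6 weeks the count of 1 was 2 with a pseudocount of 100, quantile normalization, the replicate block, or the arrays under 2 labels as controls or as exercise, 3 with all 24 columns or array weights, 0 with the GAPDH covariate or the controls of 3 and 15 weeks, and 0 to 2 with 1 array left out. At 3 weeks the count of 1 was 0 with no filter, no trend, the arrays under 2 labels as controls, as exercise, in all 24 columns or left out, and with any 1 array left out, and 3 with only the groups compared or array weights. The count of later over earlier controls was 0 and became 2 with array weights, and the interaction count of 4 became 1 with the GAPDH covariate, 5 with quantile normalization, all 24 columns or array weights, and 3 to 4 with 1 array left out. The count of 7 within the salt diet was 6 to 8 in every alternative run. Over all probe sets, with only the groups compared, the 470 calls at 15 weeks were 268, the 938 at 6 weeks 388, the 514 with exercise 255, the 209 within the salt diet 109, the 57 between controls 1, the 105 interactions 37 and the 10 at 3 weeks 100. With array weights the same counts were 1034, 1809, 1727, 469, 880, 689 and 145. With the GAPDH covariate the 938 at 6 weeks were 15, the 514 with exercise 0, the 57 between controls 3 and the 105 interactions 34. With the controls of 3 and 15 weeks the 938 were 22 and the 514 were 3. Under other settings the 57 between controls ranged from 22 to 193, the 10 at 3 weeks from 1 to 12 and the 1 of high salt against exercise from 0 to 3 (4 with the GAPDH covariate), and the 514 and 105 reached 776 and 189 with all 24 columns. Quantile normalization moved the median of all probe sets at 6 weeks from -0.15 to -0.05, and that of the red cell probe sets from -0.17 to -0.10. The replicate block changed no other count of red cell calls. The causes of these changes were not tested. No detection calls or background signals were used, so values of dim probe sets such as Hbg1 have no stated limit of detection.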
